A study of Mus musculus with 27 samples.

Results

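The small proline-rich protein genes of the mouse esophagus were followed over 9 groups of samples. The members are the 8 genes whose symbols the probe annotation of the scanner files gives as Sprr1a, Sprr1b, Sprr2d, Sprr2f, Sprr2g, Sprr2h, Sprr2k and Sprr3, out of 28146 gene names on the array, and each was read by 1 probe. Another 5 Sprr genes were on the array and are described after them. RNA was hybridized to 27 Agilent arrays in 2 colours, 3 for each group, with the esophageal sample in Cy5 and Universal Mouse Reference RNA, a mixture from mouse cell lines, in Cy3. The wild-type (WT) groups were whole esophagi at embryonic days E11.5 and E15.5 and at postnatal days P0 and P7, and esophageal epithelium of adults of 8 weeks. The mutant groups were Nrf2-/-, Keap1-/- and Nrf2-/-Keap1-/- whole esophagi at P7 and Nrf2-/- adult epithelium at 8 weeks. By the labels all mice were on a C57BL/6J background, and RNA was taken from individual esophagi. A value is the log2 ratio of Cy5 to Cy3 after normalization, a change is a difference of group means of these ratios, and a gene is called where limma gave an adjusted p (Benjamini-Hochberg) of at most 0.05.

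Small proline-rich proteins are precursors of the cornified envelope, the cross-linked protein shell that replaces the plasma membrane of differentiating squamous cells. Transglutaminases join them to each other and to partners such as loricrin and involucrin, where they act as flexible bridges. The genes lie side by side in the epidermal differentiation complex and fall into the Sprr1, Sprr2, Sprr3 and Sprr4 classes, and Sprr3 is known as an abundant product of the stratified epithelium of the esophagus and oral cavity. Nrf2, encoded by Nfe2l2, is a transcription factor of the antioxidant response, and Keap1 is the adaptor that targets it for degradation.

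In the RefSeq annotation of GRCm38.p6, 17 Sprr genes occupied chromosome 3 from 92215835 to 92500493, a span of 285 kb. All 8 members matched an entry there, of which 7 are annotated as protein-coding and Sprr2g as a transcribed pseudogene. Among the member probes, that of Sprr2k shared most with another Sprr probe. A run of 28 of its 60 bases also occurs in the probe of Sprr2b, a neighbouring gene that is no member. The run is in capitals.

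Sprr2k probe: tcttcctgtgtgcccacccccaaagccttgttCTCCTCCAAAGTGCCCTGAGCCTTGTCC

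No other member probe shared a run longer than 10 bases with a probe of another Sprr gene. Probes were compared with probes only and not with Sprr transcripts, so whether the other member probes bind RNA of further Sprr genes was not tested. How far Sprr2k and Sprr2b RNA bind each other's probe was not tested, and the Sprr2k values are uncertain in that respect.

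RefSeq promoters of GRCm38.p6 were held for 7 members and not for Sprr2g. Those printed belong to Sprr2f, the member with the largest fall from P7 to adults, to Sprr2h, the member with the largest change in Keap1-/- esophagi, and to the pair of Sprr1 genes, which behaved differently from each other. Each line gives the 250 bases before the transcript start, 5′ to 3′ on the gene's own strand, with matches to any of 4 motifs in capitals. The Sprr1b window begins at 92438780, inside its annotated gene, which ends at 92438817, so part of this window is gene sequence. The motifs were searched on both strands and were the AP-1 site TGACTCA, the core of the antioxidant response element TGACNNNGC, the TATA box TATAAA and the octamer ATGCAAAT.

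Sprr2f, chr3:92364937-92365186, plus strand: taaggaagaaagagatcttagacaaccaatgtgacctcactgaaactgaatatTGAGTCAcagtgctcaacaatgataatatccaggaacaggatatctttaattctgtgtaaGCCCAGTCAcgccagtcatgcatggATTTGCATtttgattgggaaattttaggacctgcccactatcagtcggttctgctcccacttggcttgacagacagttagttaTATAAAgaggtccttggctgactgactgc

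Sprr2h, chr3:92385435-92385684, plus strand: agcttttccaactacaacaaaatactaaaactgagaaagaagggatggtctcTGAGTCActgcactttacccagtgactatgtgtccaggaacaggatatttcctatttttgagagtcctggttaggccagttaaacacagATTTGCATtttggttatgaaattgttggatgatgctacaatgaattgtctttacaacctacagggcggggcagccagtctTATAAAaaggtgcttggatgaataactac

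Sprr1a, chr3:92485882-92486131, minus strand: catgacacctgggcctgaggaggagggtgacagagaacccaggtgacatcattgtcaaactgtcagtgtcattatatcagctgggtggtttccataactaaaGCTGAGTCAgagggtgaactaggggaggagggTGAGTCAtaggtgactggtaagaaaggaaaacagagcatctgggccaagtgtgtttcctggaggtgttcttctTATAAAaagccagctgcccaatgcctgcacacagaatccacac

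Sprr1b, chr3:92438780-92439029, minus strand: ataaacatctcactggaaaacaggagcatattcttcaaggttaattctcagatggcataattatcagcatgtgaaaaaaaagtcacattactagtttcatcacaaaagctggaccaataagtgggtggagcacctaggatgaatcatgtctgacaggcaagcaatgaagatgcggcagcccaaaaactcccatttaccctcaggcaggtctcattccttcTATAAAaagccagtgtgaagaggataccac

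The TATA box was found in 7 of 7 member promoters and in 12.4% of all 32851 promoters. The AP-1 site was found in 5 of 7, Sprr1a, Sprr2d, Sprr2f, Sprr2h and Sprr2k, and in 4.46% of all. The octamer was found in the 4 Sprr2 promoters, starting 108 to 112 bases before the start of transcription, and in 1.6% of all. The antioxidant response element core was found in Sprr2f and Sprr1a, where it overlaps an AP-1 match in Sprr1a, and in 10.2% of all. The 4 Sprr2 promoters were 66.8% to 81.2% identical to each other, with Sprr2h and Sprr2k the most alike. These matches describe letters in the windows and were not related to binding.

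Median Cy5 intensity was 81.8 to 226 per array, and 58.9% to 69.3% of spots were well above background in Cy5. Of the 216 member values (8 genes on 27 arrays), 40 were not well above background in Cy5, 50 were on spots that the scanner software had marked as outliers and kept here, and 0 were saturated. Of these marks Sprr3 had 13, Sprr1a and Sprr2d 12 each and Sprr2f 9. All 3 WT P7 arrays were marked for Sprr1a, Sprr2d and Sprr3. The mean share of spots marked was 11.7% with an older software version and 1.39% with a newer version. The newer version read the Keap1-/- arrays, the Nrf2-/- adults and WT adult replicate 3. A pair of embryo arrays went against their labels. Over 19040 genes, E11.5 replicate 3 correlated at 0.982 and 0.977 with E15.5 replicates 2 and 3 but at 0.837 and 0.782 with its own group, and E15.5 replicate 1 correlated at 0.959 and 0.930 with E11.5 replicates 1 and 2 but at 0.811 and 0.818 with its own group. The groups were kept as labelled. Member calls between ages, some member changes and gene list counts that use these groups are also given without these arrays. In Nfe2l2, which checks the Nrf2 labels, the values were -3.92 to -3.82 in Nrf2-/- and -4.14 to -4.08 in Nrf2-/-Keap1-/- esophagi against -0.55 to 0.00 in WT at P7, and -3.64 to -2.85 in Nrf2-/- against 0.81 to 1.27 in WT adults. The Keap1 probe read -0.26 to 0.64 in Keap1-/- and 0.42 to 1.00 in WT esophagi at P7, which overlap, and whether it lies inside the deleted part was not determined. Of 13 Nrf2 target genes, 12 were higher in Keap1-/- than in WT esophagi at P7. The 8 suprabasal esophageal markers, Krt4 and Krt13 among them, had a list level (mean log2 ratio with each gene centred over the 27 arrays) of -4.10 to -1.25 in the embryo arrays and 0.27 to 1.22 in all later ones.

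**Figure D1:**
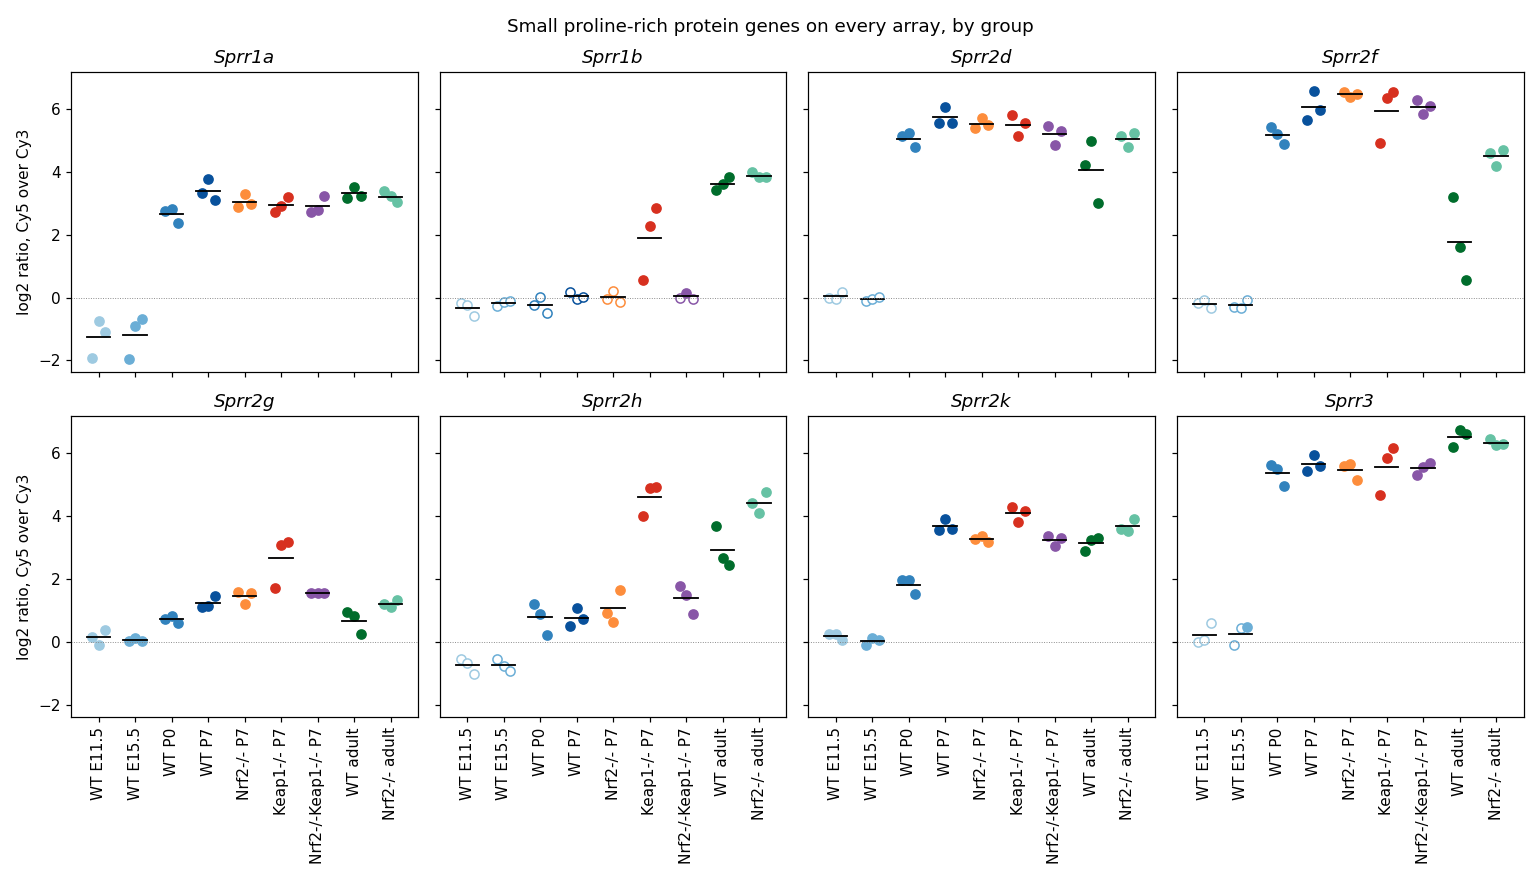
Each panel is 1 gene, the vertical axis is the log2 ratio of sample to reference, each point is an array and each bar a group mean (n = 3); open points are not well above background in Cy5. Sprr1b stays between -0.58 and 0.21 in every group apart from Keap1-/- esophagi and adult epithelium, while Sprr2f falls to between 0.55 and 3.19 in WT adults.

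The members did not share 1 pattern. Sprr1a, Sprr2d, Sprr2f and Sprr3 were near or below the reference in embryos and high in every postnatal group, except that Sprr2f was far lower in WT adults. Sprr1b and Sprr2h had their highest values in adult epithelium and Keap1-/- esophagi, and Sprr2g in Keap1-/- esophagi. Across the 27 arrays, Pearson's r between pairs of members, given as a description over arrays that share their groups and reference, ran from 0.0133 for Sprr1b with Sprr2f to 0.983 for Sprr1a with Sprr3. In bulk samples such as these, fewer cells of a type and less RNA per cell cannot be told apart.

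Sprr1a, a crosslinked bridge protein of the envelope, had group means in the order WT P7 (3.40), WT adult (3.32), Nrf2-/- adult (3.21), Nrf2-/- P7 (3.05), Keap1-/- P7 (2.94), Nrf2-/-Keap1-/- P7 (2.91), WT P0 (2.65), E15.5 (-1.18) and E11.5 (-1.26). Each neighbour in this order overlapped the next, except P0 and E15.5. Sprr3 was ordered WT adult (6.53), Nrf2-/- adult (6.33), WT P7 (5.67), Keap1-/- P7 (5.56), Nrf2-/-Keap1-/- P7 (5.52), Nrf2-/- P7 (5.46), P0 (5.37), E15.5 (0.27) and E11.5 (0.23). Its neighbours overlapped except between the Nrf2-/- adults and WT P7, and between P0 and E15.5.

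Sprr1b, the close relative of Sprr1a, was ordered Nrf2-/- adult (3.88), WT adult (3.63) and Keap1-/- P7 (1.89), followed by 6 groups with means from -0.33 to 0.04 that overlapped along the order. The adult groups overlapped each other, and neither they nor Keap1-/- esophagi overlapped the group below. Sprr2h was ordered Keap1-/- P7 (4.62), Nrf2-/- adult (4.44), WT adult (2.94), Nrf2-/-Keap1-/- P7 (1.39), Nrf2-/- P7 (1.07), P0 (0.78), WT P7 (0.78), E15.5 (-0.73) and E11.5 (-0.74). It did not overlap between Nrf2-/- and WT adults, between WT adults and Nrf2-/-Keap1-/- esophagi, or between P7 and E15.5.

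Sprr2f was ordered Nrf2-/- P7 (6.46), Nrf2-/-Keap1-/- P7 (6.07), WT P7 (6.06), Keap1-/- P7 (5.92), P0 (5.16), Nrf2-/- adult (4.49), WT adult (1.78), E11.5 (-0.19) and E15.5 (-0.24). Nrf2-/- P7 was separate from Nrf2-/-Keap1-/- P7, and from P0 down to E11.5 each group was separate from the next. Sprr2d was ordered WT P7 (5.73), Nrf2-/- P7 (5.53), Keap1-/- P7 (5.50), Nrf2-/-Keap1-/- P7 (5.20), Nrf2-/- adult (5.06), P0 (5.04), WT adult (4.07), E11.5 (0.05) and E15.5 (-0.04), and WT adults and E11.5 were its only separate neighbours. Sprr2k had its highest mean in Keap1-/- esophagi (4.10) and its lowest at E15.5 (0.03), and Sprr2g in the same groups at 2.67 and 0.06. Sprr2g in Keap1-/- esophagi did not overlap the next group. Without the pair of embryo arrays that go against their labels, the embryo groups were still the lowest in 7 members, all but Sprr1b, and E11.5 and E15.5 changed places in Sprr2d, Sprr2g and Sprr2h.

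In the metaplasia phase, when a simple columnar epithelium becomes a keratinized stratified squamous one, the question was when these genes change. From E15.5 to P0, 7 of 7 tested members rose (19.7% of 19709 genes were called in this comparison). From E11.5 to E15.5 no member of 7 was called (0% of 19709 genes; 322 were at or under 0.05 before adjustment in limma). Sprr1b was not tested, as it was not well above background on any of the 12 arrays.

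Sprr3 read 0.02, 0.07 and 0.60 at E11.5, -0.10, 0.44 and 0.46 at E15.5, and 5.63, 5.51 and 4.97 at P0. Sprr2d read -0.01, -0.04 and 0.18 at E11.5, -0.10, -0.03 and 0.03 at E15.5, and 5.13, 5.22 and 4.77 at P0. Sprr2f read -0.17, -0.09 and -0.32, then -0.31, -0.32 and -0.09, then 5.42, 5.19 and 4.89. For all 3 the embryo groups overlapped each other and every P0 array was above every embryo array. The rise from E15.5 to P0 was 5.10 ± 0.24 (SE) for Sprr3, 5.08 ± 0.16 for Sprr2d and 5.41 ± 0.21 for Sprr2f, with limma adjusted p of 6.21e-07, 2.01e-07 and 2.82e-07.

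The spots of Sprr2d, Sprr2f and Sprr2h were not well above background on any embryo array, and that of Sprr3 on only 1 of 6, so these rises start from a level that was not measured, and their size differed by scale. Sprr2d, for one, rose by 5.08 in the ratio and by 6.73 in Cy5 intensity alone, and no minimum fold is given. All 4 passed the filter on dim probes only through their P0 and P7 arrays, so they had to differ between ages and their count supports nothing further.

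Sprr1a, unlike these, was well above background in every embryo and lay below the reference. It read -1.93, -0.73 and -1.11 at E11.5, -1.94, -0.91 and -0.69 at E15.5, and 2.76, 2.82 and 2.37 at P0. Its rise from E15.5 was 3.83 ± 0.36 (adjusted p = 9.39e-05, limma). Sprr2k read 0.26, 0.26 and 0.08, then -0.09, 0.12 and 0.08, then 1.98, 1.97 and 1.54, a rise of 1.80 ± 0.15 (adjusted p = 3.89e-05). Sprr2g, the annotated pseudogene, had the smallest rise, 0.66 ± 0.14 (adjusted p = 0.0089), from 0.02, 0.13 and 0.02 to 0.73, 0.83 and 0.60. It was not called with each spot's own local background (0.47, adjusted p = 0.143), with Cy5 alone (0.17, adjusted p = 0.702) or with all 27 arrays in 1 fit (adjusted p = 0.0599), and Sprr2h was not called with own local background (0.92, adjusted p = 0.0638).

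From P0 to P7 only Sprr2k rose, 1 of 7 members (2.43% of 19709 genes were called). It read 3.57, 3.93 and 3.61 at P7, all above the 3 P0 arrays, a change of 1.87 ± 0.15 (limma adjusted p = 0.000206). Sprr2d (0.69 ± 0.16, adjusted p = 0.0587), Sprr2f (0.90 ± 0.21, adjusted p = 0.0617) and Sprr2g (0.53 ± 0.14, adjusted p = 0.0885) missed the threshold with separate groups, while Sprr2h changed by -0.01 ± 0.25. Over the whole phase from E11.5 to P7, 7 of 7 members were higher (30.2% of genes called), with a median change of 4.66 against -0.01 over all genes. By the F-test over the 4 time points 7 of 7 were called (30.0% of genes). Sprr2d, Sprr2f, Sprr2h and Sprr3 passed the filter only through P0 and P7 arrays. These counts and the median thus follow in part from the filter. With Cy5 alone Sprr2g was not called over the whole phase (0.66, adjusted p = 0.0878).

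Without the pair of embryo arrays that go against their labels, 7 of 7 members rose from E15.5 to P0 (19.5% of 19373 genes called), by 0.64 for Sprr2g to 5.37 for Sprr2f, and 7 of 7 over the whole phase (40.5%). These counts hold the same 4 members that passed the filter only through P0 and P7 arrays. Between the embryo ages, E11.5 and E15.5, 0 of 7 were called (13.8% of genes), with Sprr1a at 0.54 (adjusted p = 0.356, limma) and Sprr3 at 0.41 (adjusted p = 0.266). Sprr2d, Sprr2f and Sprr2h were not well above background on any embryo array, and Sprr3 on only 1 of 6. A change between these ages could therefore hardly be read for them. In that step 7 of 8 suprabasal epithelial markers, 6 of 7 basal markers and 4 of 7 skeletal muscle markers rose without the pair, against 0 of each with it. From E15.5 to P0, 5 of 8 suprabasal markers and 1 of 7 basal markers rose both with and without the pair, and skeletal muscle markers rose in 4 of 7 with it and 6 of 7 without. The part of such shifts in cell makeup was not tested.

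**Figure D2:**
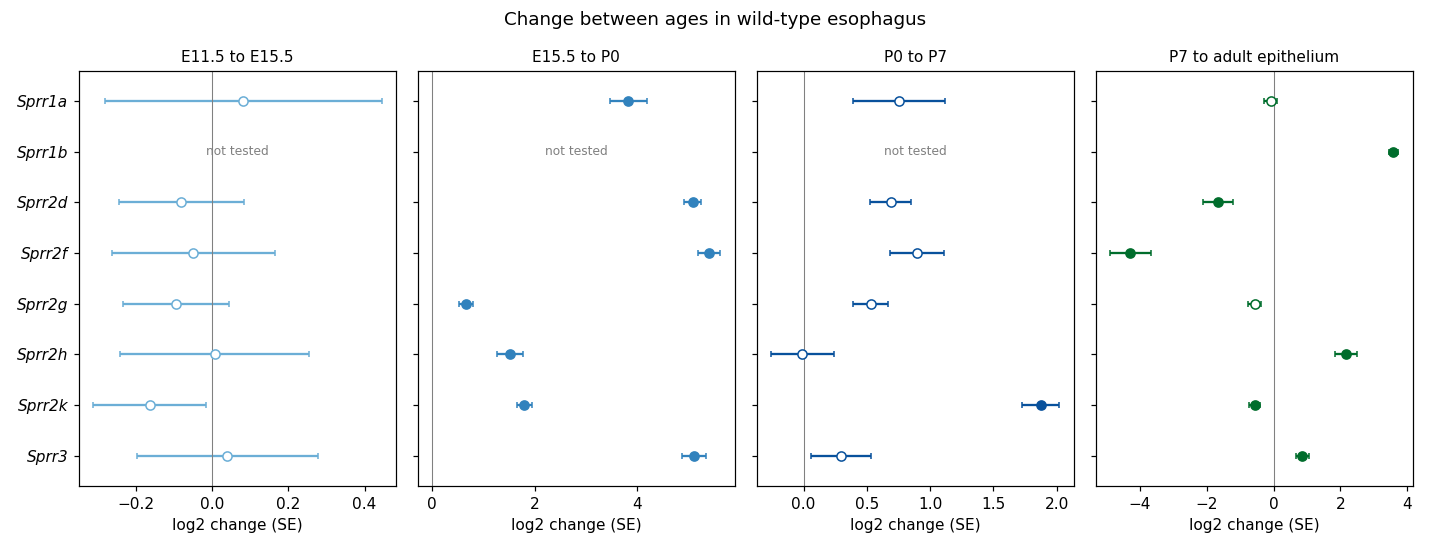
The horizontal axis of each panel is a log2 change between wild-type ages on its own scale, points are members with bars of 1 SE, and filled points are called. The 7 tested members are filled from E15.5 to P0, Sprr2k alone from P0 to P7, and Sprr2f at -4.28 is the lowest from P7 to adults.

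In the maturation phase the members parted. From P7 to adult epithelium, 6 of 8 were called (43.0% of 17999 genes), 3 higher and 3 lower. Sprr1b, Sprr2h and Sprr3 rose, and Sprr2f, Sprr2d and Sprr2k fell. Whole esophagus was taken at P7 and epithelium in adults, so age and dissection cannot be told apart. All 7 skeletal muscle markers and all 6 mesenchyme markers were lower in adults, from 1.32 to 1.90 down to -3.00 to -1.99 for the muscle list level, while 2 of 7 basal markers were higher and suprabasal markers were divided, 4 higher and 2 lower.

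Sprr1b read 0.17, -0.05 and 0.01 in P7 esophagi, none well above background, and 3.43, 3.62 and 3.83 in adult epithelium. The change was 3.58 ± 0.14 (limma adjusted p = 7.32e-06) in the ratio and 4.91 in Cy5 alone, from a level that was not measured. It passed the filter only through the adult arrays. Sprr2h read 0.51, 1.09 and 0.73 at P7 and 3.69, 2.68 and 2.46 in adults, a rise of 2.17 ± 0.32 (adjusted p = 0.00166). With high local backgrounds of other spots left uncapped it was 0.54 and not called (limma adjusted p = 0.537).

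Sprr2f had the largest fall. It read 5.65, 6.56 and 5.97 at P7 and 3.19, 1.61 and 0.55 in adults, groups that did not overlap but with a wide spread among adults, and it fell by 4.28 (SE 0.61, limma adjusted p = 0.00133). The lowest adult was replicate 3, scanned separately from the others. Within the scan shared by all 3 P7 and 2 adult arrays the difference was -3.66. Sprr2d fell by 1.66 (SE 0.45, adjusted p = 0.0218), from 5.56, 6.07 and 5.55 to 4.21, 4.99 and 3.01, and was not called without P7 replicate 2 (adjusted p = 0.0518) or adult replicate 1 (adjusted p = 0.0564), nor with the processed signals of the scanner software, where it fell by 0.52. Sprr2k fell by 0.56 (SE 0.16, adjusted p = 0.0275), and was not called when any of P7 replicates 2 and 3 or adult replicates 1 and 2 was left out. Sprr3 rose by 0.86 (SE 0.19, adjusted p = 0.00984), from 5.46, 5.96 and 5.60 to 6.21, 6.74 and 6.63, and by 0.03 after scale normalization between arrays (adjusted p = 0.946). Sprr1a changed by -0.09 ± 0.19 and Sprr2g by -0.57 ± 0.20 (adjusted p = 0.0577), neither called, although Sprr2g was called without adult replicate 1 (-0.71, limma adjusted p = 0.0477).

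At P7 the question was whether these genes differ in esophagi that lack Nrf2, Keap1 or both. Sprr1b, Sprr2g and Sprr2h, 3 of 8 members, were higher in Keap1-/- than in WT esophagi (33.3% of 19063 genes were called), and 0 were lower. Sprr1b was well above background on all 3 Keap1-/- arrays and on 1 of the other 9, so it passed the filter only through the group where it is high. In Nrf2-/- esophagi 0 of 8 were called (0.0157% of genes; 2040 genes were at or under 0.05 before adjustment in limma, Sprr2k among them), and in Nrf2-/-Keap1-/- against WT esophagi 0 of 8 (0.430%; 3320 genes at or under 0.05 before adjustment in limma). The share of members called in Keap1-/- esophagi was near that of all genes. The Keap1-/- arrays were the only ones on their slide and in their scan, so genotype, slide and scan cannot be told apart for them.

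Sprr2h, of the Sprr2 class, differed most. It read 4.02, 4.89 and 4.95 in Keap1-/- esophagi against 0.51, 1.09 and 0.73 in WT, and the groups were far apart. The rise was 3.85 ± 0.33 (limma adjusted p = 1.71e-05), a 14.4-fold change of the ratio. The rise was 3.22 with median centring and 5.49 in Cy5 alone, and Cy3 at this spot was itself 206 to 899 in Keap1-/- against 127 to 132 in WT esophagi. Without any one array it stayed between 3.68 and 4.15. In Nrf2-/-Keap1-/- esophagi it read 1.79, 1.50 and 0.88, not separate from WT.

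Sprr1b read 0.55, 2.28 and 2.84 in Keap1-/- esophagi, where every array was well above background, against 0.17, -0.05 and 0.01 in WT, where none was. Replicate 1 was much lower than the others, yet above every WT array. The rise was 1.85 ± 0.43 (adjusted p = 0.00806), from a level that was not measured. Sprr2g read 1.72, 3.10 and 3.18 against 1.13, 1.15 and 1.47, a rise of 1.42 ± 0.31 (adjusted p = 0.00594), with replicate 1 again the lowest. Without Keap1-/- replicate 1 the rises were at their highest, 2.52 for Sprr1b and 1.89 for Sprr2g.

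The other 5 members were not called in Keap1-/- esophagi. Sprr2k read 4.31, 3.82 and 4.17 against 3.57, 3.93 and 3.61 (0.40 ± 0.15, adjusted p = 0.0596), and was called without WT replicate 2 (0.51, limma adjusted p = 0.0276) or Keap1-/- replicate 2 (0.54, adjusted p = 0.0218). Sprr1a (-0.46 ± 0.20), Sprr2d (-0.23 ± 0.21), Sprr2f (-0.14 ± 0.37) and Sprr3 (-0.11 ± 0.32) had adjusted p from 0.106 to 0.821. Keap1-/- replicate 1 was low for Sprr2f (4.90 against 6.33 and 6.54) and for Sprr3 (4.67 against 5.86 and 6.16). Without it their changes were 0.38 and 0.34, neither called. Markers moved in the same comparison, with 5 of 5 markers of simple epithelium lower in Keap1-/- esophagi (list level -2.42 to -2.24 against 1.22 to 1.87 in WT) and 5 of 6 mesenchyme markers lower, and their part in the member results was not tested.

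In Nrf2-/-Keap1-/- esophagi 4 of 8 members were lower than in Keap1-/- esophagi (33.3% of genes called). Sprr2h fell by 3.23 ± 0.33 (adjusted p = 6.33e-05), Sprr1b by 1.85 ± 0.43 (adjusted p = 0.00783), Sprr2g by 1.10 ± 0.31 (adjusted p = 0.0203) and Sprr2k by 0.85 ± 0.15 (adjusted p = 0.00152), all in limma. In the double mutant Sprr1b read -0.00, 0.16 and -0.04 and Sprr2g 1.56, 1.57 and 1.57. This comparison shares the Keap1-/- arrays, their slide and scan, and the way Sprr1b passed the filter, with the one above. With Cy5 alone Sprr2k was not called (-0.24, adjusted p = 0.256). The Sprr2g fall was not called without Keap1-/- replicate 2 (adjusted p = 0.0829) or replicate 3 (adjusted p = 0.0865), or without double mutant replicate 1 or 3.

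**Figure D3:**
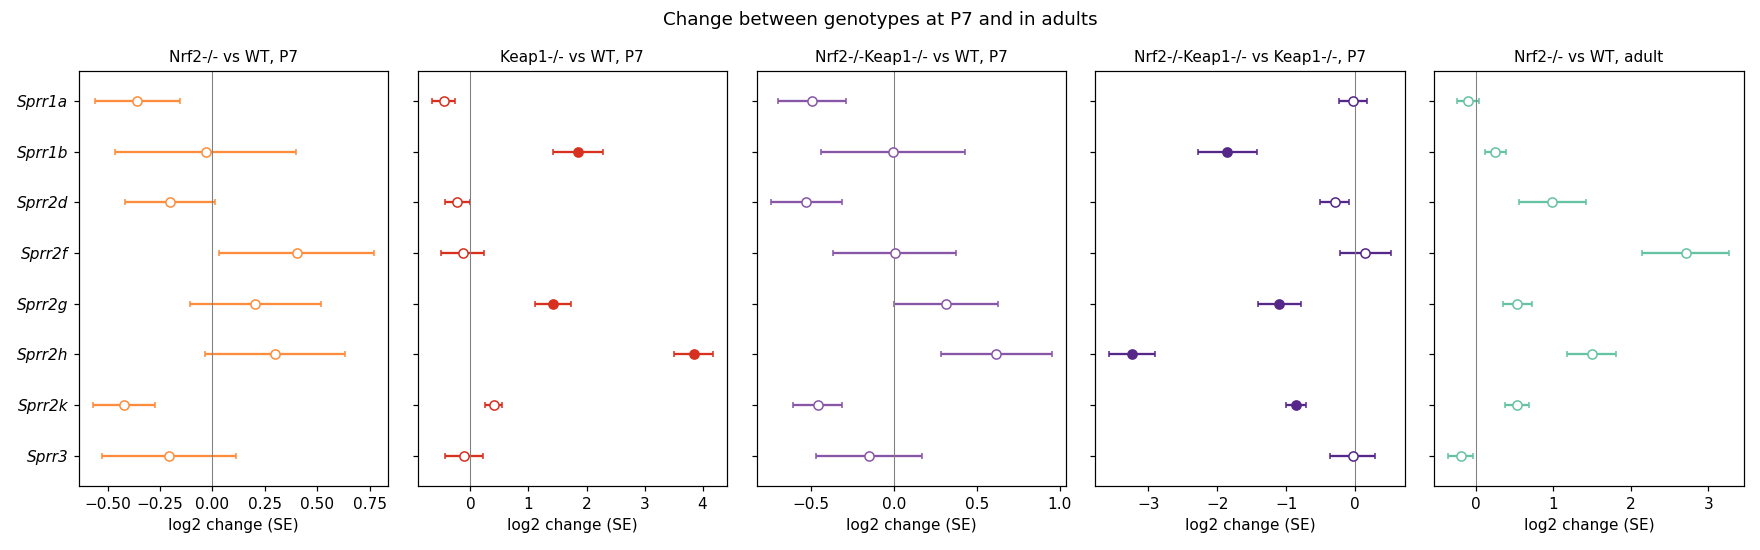
The horizontal axis of each panel is a log2 change between genotypes on its own scale, points are members with bars of 1 SE, and filled points are called. Filled points are Sprr1b, Sprr2g and Sprr2h in Keap1-/- against WT esophagi, and the same 3 genes and Sprr2k in the double mutant against Keap1-/-.

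In adult epithelium the Nrf2-/- group lay higher than WT for several Sprr2 genes without passing the test. Of 8 members 0 were called (0.499% of 18043 genes; 3044 genes at or under 0.05 before adjustment in limma). Sprr2f read 4.58, 4.18 and 4.69 in Nrf2-/- against 3.19, 1.61 and 0.55 in WT adults, and the groups were separate. Its difference was 2.71 ± 0.57 (limma adjusted p = 0.1). Sprr2h read 4.43, 4.11 and 4.78 against 3.69, 2.68 and 2.46, also separate (1.50 ± 0.32, adjusted p = 0.103). Sprr2k differed by 0.53 ± 0.16 (adjusted p = 0.177) and Sprr2g by 0.53 ± 0.19 (adjusted p = 0.225), and Sprr2d by 0.99 ± 0.43 (adjusted p = 0.303) with overlapping groups. Sprr1a, Sprr1b and Sprr3 differed by -0.10, 0.25 and -0.20. Other markers moved in this comparison, and their part was not tested. Suprabasal epithelial markers had a list level of 0.79 to 1.07 in Nrf2-/- against 0.50 to 0.84 in WT adults, which overlap. Of these 8 markers 1 was called higher and 0 lower, and their median change was -0.11. The level of the 7 skeletal muscle markers was -2.18 to -1.13 in Nrf2-/- against -3.00 to -1.99 in WT adults with 0 of 6 tested called, and that of the 3 red cell markers was -1.18 to -1.08 against -2.04 to -1.82 with 1 of 3 called.

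Without WT adult replicate 1, Sprr2f (3.41, limma adjusted p = 0.0234) and Sprr2h (1.87, adjusted p = 0.0415) passed the threshold. From Cy5 intensity alone the Sprr2f difference was 1.68 and not called, and that of Sprr2h was 1.97 (adjusted p = 0.0349). WT adult replicate 3 had the lowest Sprr2f ratio, with Cy3 at 248 against 97.7 and 94.3 in replicates 1 and 2. Its Cy5 was 228, against 377 and 132. WT adult replicates 1 and 2 shared a scan and an older version of the scanner software with no Nrf2-/- adult, while WT replicate 3 and the Nrf2-/- adults were in 2 other scans with a newer version, so genotype and scan overlapped in part. Within the scan that held 1 WT and 2 Nrf2-/- adults, the differences were 3.84 for Sprr2f and 1.81 for Sprr2h, and 0 of 8 members were called by limma with scan as a fixed block.

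Whether the difference between Nrf2-/- and WT was the same in adults and at P7 was tested as an interaction, and 0 of 8 members were called (0.0980% of 19389 genes; 2185 genes at or under 0.05 before adjustment in limma). Sprr2k had the lowest p of the members (0.96 ± 0.21, limma adjusted p = 0.152). It was -0.42 ± 0.15 in Nrf2-/- against WT at P7, with values of 3.28, 3.38 and 3.19 below all WT arrays, and 0.53 ± 0.16 in adults, with 3.61, 3.53 and 3.90 above 2.90, 3.24 and 3.30. Sprr2f had an interaction of 2.31 ± 0.71 (adjusted p = 0.289), and of 3.01 (adjusted p = 0.0333) without WT adult replicate 1.

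The reference colour did not stay level at these spots. The Cy3 label marks the same reference RNA on every array, but its mean intensity at the Sprr2d spot ran from 46.8 to 5051, a 108-fold range, at Sprr3 44.4-fold, at Sprr1b 22.0-fold, at Sprr2f 13.2-fold and at Sprr1a 10.3-fold, against 2.81-fold at Sprr2g. It was high where Cy5 was high, with Pearson's r between the log2 intensities of 0.958 for Sprr2d and 0.962 for Sprr3 and of 0.206 for Sprr2g, described over 27 arrays. At Sprr2d, Cy3 was 1191 to 5051 in Keap1-/- and 391 to 636 in WT esophagi at P7. From Cy5 intensity alone Sprr2d was 2.70 higher in Keap1-/- esophagi (limma adjusted p = 0.000866), against -0.23 for the ratio. The ratio therefore reads Sprr2d as level between these groups and Cy5 alone as higher, and the cause was not tested.

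**Figure D4:**
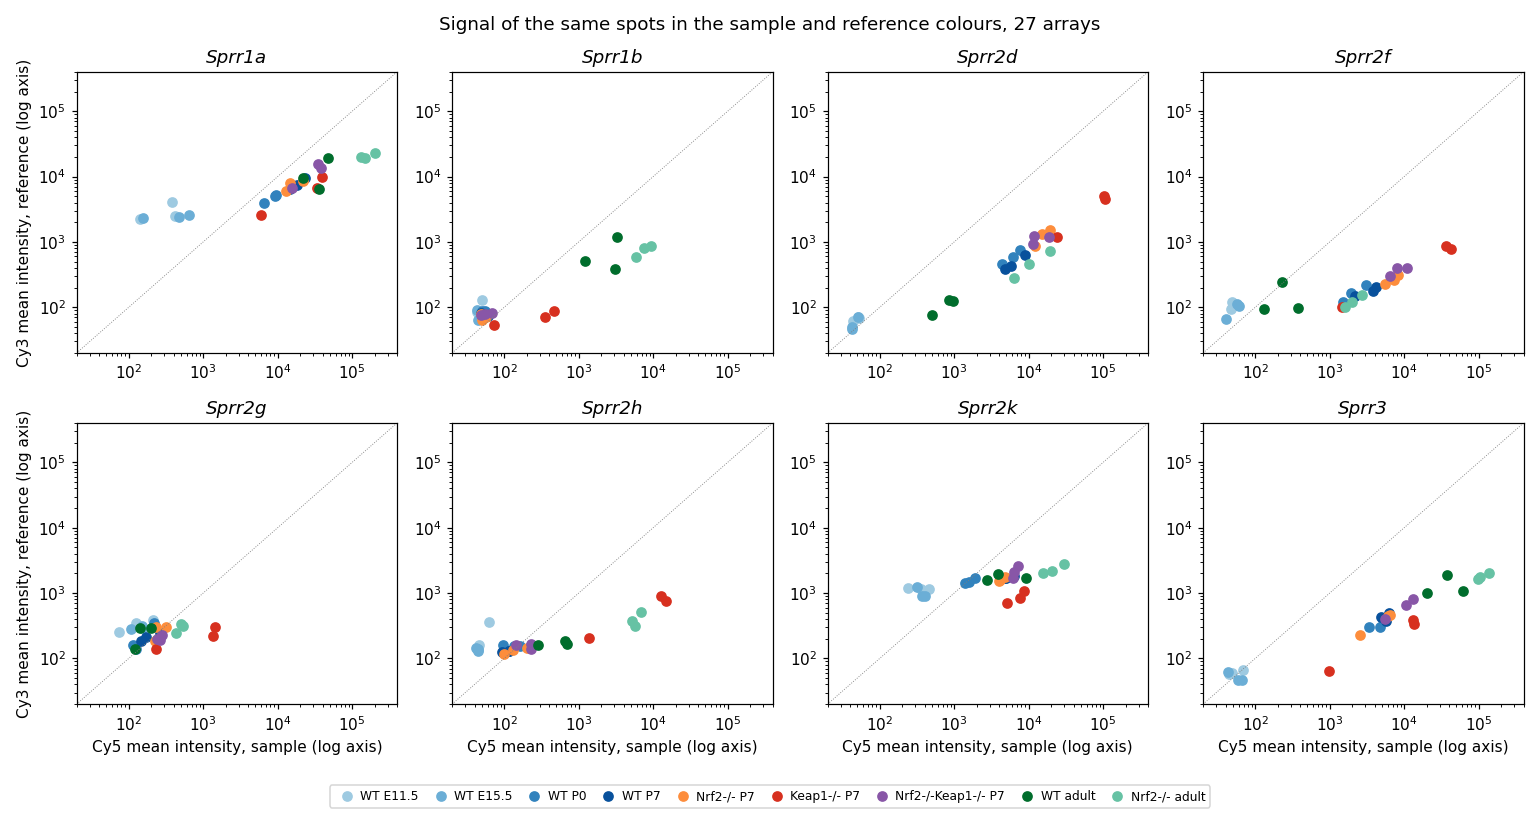
Each panel is 1 gene, the axes are mean intensities of the same spot in Cy5 (horizontal, sample) and Cy3 (vertical, reference) on log scales, each point is 1 of 27 arrays and the dotted line marks equal intensity. Points of Sprr2d and Sprr3 climb along both axes, while those of Sprr2g spread along Cy5 with Cy3 between 139 and 391.

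The other Sprr genes on the array were Sprr4, Sprr2e, Sprr2b, Sprr2j-ps and Sprr2a1. From E15.5 to P0, 4 of 4 tested were higher (19.7% of all genes called), also without the pair of embryo arrays (19.5%). Sprr2b rose by 2.21 ± 0.18 and Sprr2e by 1.98 ± 0.19 (limma adjusted p of 3.16e-05 and 9.47e-05). From P0 to P7 Sprr2b rose by 1.82 ± 0.18 (adjusted p = 0.000711) and Sprr2j-ps by 1.21 ± 0.25 (adjusted p = 0.0306), and from P7 to adults Sprr2b fell by 0.57 ± 0.13 (adjusted p = 0.012). Sprr2b is the gene whose probe shares 28 bases with that of Sprr2k. In Keap1-/- esophagi 1 of 4 was called (33.3% of all genes called), Sprr2j-ps at 1.08 ± 0.13 (adjusted p = 0.000158). Both probes of Sprr2a1 were averaged although they differed, reading 3.39 to 3.62 and -0.17 to 0.03 at P0.

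Among 29 to 30 tested genes of other cornified envelope precursors and crosslinkers, 11 were called higher at P0 than at E15.5 and 13 higher at P7 than at P0, and none fell in either step (19.7% and 2.43% of all genes were called). Without the pair of embryo arrays the first count was 14 of 29. Csta, a cysteine protease inhibitor of the envelope, rose by 5.76 ± 0.60 (adjusted p = 0.000177, limma) and Cnfn, cornifelin, by 4.08 ± 0.22 (adjusted p = 1.66e-06) in the first step (5.12 and 3.83 without the pair), and Lce1a2, a late cornified envelope gene, by 3.86 ± 0.44 (adjusted p = 0.00157) in the second. From E11.5 to E15.5, 6 of 29 were called higher without the pair (13.8% of all genes called) and 0 with it. From P7 to adults 19 of 30 rose and 0 fell (43.0% of all genes called), with Hrnr, hornerin, at 5.18 ± 0.50 (adjusted p = 0.000267). In Keap1-/- esophagi 5 of 29 rose and 3 fell, against 33.3% of all genes called, led by Cdsn, corneodesmosin, at 2.13 ± 0.47 (adjusted p = 0.0059) and Csta, which fell by 1.34 ± 0.25 (adjusted p = 0.00225).

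Another list held 29 tested genes, which were transcription factors known to act on Sprr genes or on squamous differentiation and the adaptor Keap1. Of these, 15 rose from E15.5 to P0 (19.7% of all genes called). They included Grhl1 at 3.32 ± 0.61, Prdm1 at 2.92 ± 0.27 and Elf3 at 2.88 ± 0.44 (adjusted p of 0.00458, 8.72e-05 and 0.00179, limma). None was called from P0 to P7, where limma called 2.43% of all genes. Without the pair of embryo arrays 14 rose from E15.5 to P0, with Grhl1 at 2.70, Prdm1 at 2.97 and Elf3 at 2.35. From E11.5 to E15.5, 8 of 29 were called higher without the pair (13.8% of all genes called) and 0 with it. From P7 to adults 12 rose and 4 fell (43.0% of all genes called), with Ovol1 at 2.66 ± 0.17 (adjusted p = 5.04e-05). In Keap1-/- esophagi 9 rose and 4 fell (33.3%). Elf3, an epithelial ETS factor known to act on Sprr2a, fell by 2.58 ± 0.22 (adjusted p = 1.56e-05), and Mafg, a small Maf partner of Nrf2, rose by 1.98 ± 0.18 (adjusted p = 2.66e-05).

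The genes outside the family whose log2 ratios over the 27 arrays were most like the mean of the members, each centred on its own mean, were Rbp2 (Pearson's r of 0.974), 2310002J15Rik (0.973), Ephx3 (0.973), Tgm3 (0.972), 2200001I15Rik (0.971), Crct1 (0.970), Cnfn (0.965) and Sdcbp2 (0.962), of 19028 candidates. By Spearman's rho the same genes ranked between 68.5 and 618.5, so the choice depends on the measure. The arrays share their groups and reference, and the values are a description.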

How the data were processed

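Mean and local background intensities of each spot were deposited by the authors as Agilent Feature Extraction output (version 9.1 per the labels; other versions per the file headers), with processed intensities and log10 ratios, before any merging of replicates. The log10 ratios deposited by the authors equalled those of the software within 0.005. The study's methods name another scanner than the file headers. Here, intensities were corrected by normexp (offset 50) with each spot's local background and normalized by loess within each array. A local background more than 5 times that of the median spot was set to the median for this correction. The spot was then left out, and no member spot was affected. An alternative left such backgrounds uncapped and kept their spots. Outlier-marked spots were kept, and log2 ratios were averaged over the probes of a gene. A gene entered a fit if 3 or more of its arrays had a probe well above the Cy5 background, and was tested with limma 3.58.1 in R 4.3.3 (version 1.17.8 of the data table package, statmod 1.5.0), p-values being adjusted over every gene tested (Benjamini-Hochberg). The study used SAM, in whose place limma was used. Sequences were read with Python 3.11.15 and Biopython 1.88, and figures drawn with matplotlib 3.10.9. Scripts were tested on simulated data.

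Arrays were grouped by the labels, and p-values measure the spread between 3 esophagi per group, a number that limits the precision. For each gene the spread was pooled over the groups of a fit. These were the WT ages from E11.5 to P7, the genotypes at P7, or otherwise the groups compared. The SE of a comparison thus also reflects groups outside it. For Sprr1b in Nrf2-/- against WT at P7 it was 0.43, with SDs of 0.18 and 0.11 in these groups and 1.19 in Keap1-/-. Members and gene lists were chosen with earlier results of these data known. The genes named are the members, Nfe2l2 and Keap1, the 8 most alike genes, and at most the 3 largest called changes per list. Apart from these, both probes of Sprr2a1 were described after their values were seen. Replicate numbers were checked for pairing by the correlation of same-numbered deviations from group means. Every correlation was over 0.1 only from P0 to P7 (0.134 to 0.369), from E11.5 to P7 (0.127 to 0.191) and for Nrf2-/-Keap1-/- against Keap1-/- (0.128 to 0.363), and the labels number the replicates only. The alternatives were the processed signals, the deposited log10 ratios, other background and normalization choices, Cy5 alone, other filters, all arrays in 1 fit, replicate, slide or scan as a block, and each array left out.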

Additional observations from a re-analysis of the deposited data

How the results depend on the processing

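Of 1781 member values under the alternatives, 28 lost and 25 gained a call, and 109 changed sign with no call on either side. The value that reversed was Sprr2d in Keap1-/- against WT esophagi, 2.70 with Cy5 intensity alone. Of 269 counts of members called, 17 moved by over 1.5 times. With outlier-marked spots left out, 3 members were called from E15.5 to P0, from E11.5 to P7 and by the F-test, of 3 tested, and 2 from P7 to adults, of 4 tested. Sprr1a, Sprr2d, Sprr2f and Sprr3 could not be tested in these comparisons, or between genotypes at P7, without the marked spots. With both colours above background on 60% of arrays, the same first 3 counts were 3, of 3 tested. From P0 to P7 the count was 3 after scale normalization, and from P7 to adults it was 3 with the processed signals and with the deposited ratios. In adults, Nrf2-/- against WT gave 2 with uncapped local backgrounds, 1 with Cy5 alone and 2 with all 27 arrays in 1 fit. The interaction gave 3 with uncapped local backgrounds. Except for fewer members tested, the cause was not tested.

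With 1 array left out, the counts ranged from 1 to 2 from P0 to P7, 4 to 6 from P7 to adults, 3 to 4 for Keap1-/- against WT, 3 to 4 for Nrf2-/-Keap1-/- against Keap1-/-, 0 to 2 in adults and 0 to 1 for the interaction. The P0 to P7 count was 2 without WT P7 replicate 1, when Sprr2f was called too. They were 7 throughout from E15.5 to P0, from E11.5 to P7 and by the F-test, and 0 throughout from E11.5 to E15.5 and for Nrf2-/- and Nrf2-/-Keap1-/- against WT at P7. With the replicate block, the paired counts were 7 from E15.5 to P0, from E11.5 to P7 and by the F-test, 1 from P0 to P7, 6 from P7 to adults, 3 for Keap1-/- against WT, 4 for Nrf2-/-Keap1-/- against Keap1-/- and 0 elsewhere, each equal to the unpaired count. Over all genes, the block moved the adult count from 90 to 21. Scan as a block was not run for the metaplasia phase (1 scan) or at P7 (Keap1-/- alone in its scan). Alternatives for the interaction and the F-test other than the block and left-out arrays, and the within-scan values, were chosen after seeing the data. Depth limits Sprr1b, Sprr2d, Sprr2f, Sprr2h and Sprr3 where they were not well above background.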
